A study of Mus musculus with 14 samples.

Results

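The 4 libraries described here hold donor-derived CD4+ T cells sorted from the liver of mice with chronic graft-versus-host disease (cGVHD), 2 from the PSGL1lo and 2 from the PSGL1hi fraction, out of 14 libraries in the series. They were chosen by their titles, without use of any measured value. In the model, BALB/C recipients received TCD-BM (T cell-depleted bone marrow) from B6 donors, with or without splenocytes, and tissues were taken 30 days after HCT (haematopoietic cell transplantation). The labels give the strain of every sample as C57BL/6, and both fractions come from cGVHD mice, so the 4 libraries share disease, tissue, donor strain and day. The other 10 libraries are the same fractions from cGVHD spleen and lung and spleen PSGL1lo cells of GVHD-free mice. The sources used here do not give host age, the number of mice behind a library, any pooling or the gates of the sort, and no label says that the 2 libraries of a fraction are separate animals. The p-values therefore rest only on how far libraries spread within groups, pooled over all 14 libraries, and that spread may be technical.

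PSGL1, encoded by Selplg, is a mucin-like surface protein that binds P-selectin and other selectins once it carries the right sugars, and it guides activated T cells onto vessel walls. T follicular helper cells, which help B cells make antibody, are known to carry little of it, and extrafollicular helper T cells have been described as PSGL1lo cells outside follicles. In cGVHD, donor CD4+ T cells damage organs such as the liver and also drive B cells towards antibody production. The comparison of the 2 fractions addresses what sets the PSGL1lo cells of a target organ apart from the PSGL1hi cells of the same organ.

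Levels are CPM, that is, counts brought to 1 shared library size after TMM scaling (trimmed mean of M-values). They are listed for replicates 1 and 2, PSGL1lo before PSGL1hi. A difference is a fitted log2 value, PSGL1lo minus PSGL1hi, with a standard error (SE). The SE was derived as the size of the difference divided by the square root of the test's F value. A gene was called where edgeR's quasi-likelihood test gave a Benjamini-Hochberg adjusted p under 0.05. The liver libraries held 22380631 to 33532595 counts, so that the floor of 3 counts, up to which a count of 0 is uninformative, corresponds to 0.0859 to 0.135 CPM and covers counting error only. The 2 PSGL1hi libraries were closer to each other (biological coefficient of variation 3.8%) than the 2 PSGL1lo libraries (12.3%). The common value over all 14 libraries, which the fit pools, was 7.35%, below that of the PSGL1lo pair. The library name of PSGL1lo replicate 1 ends in S18 and the others in S44 to S46, with no meaning given. Within each replicate number the 2 fractions share a letter in their library names, LA in replicate 1 and LB in replicate 2, and the labels do not say whether it marks an animal or a sort. The coreceptor gene Cd4 stood at 2571 and 2551 against 2557 and 2686 CPM and Cd3e, a chain of the T cell receptor complex, at 1283 and 1100.2 against 1074 and 1219.8 CPM, and neither was called. The sorted marker followed the labels, since Selplg stood at 612 and 540.2 against 909 and 937 CPM (log2 difference -0.68 ± 0.09, adjusted p = 7.89e-06). Both PSGL1lo libraries lay below both PSGL1hi libraries, beside 56.5% of all genes tested without overlap in either direction.

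Hepatocyte RNA was set apart first because it differed between the fractions. Hepatocytes make most plasma proteins, and T cells are not known as their source. Alb, the albumin gene, stood at 38.8 and 31.8 against 16.3 and 13.1 CPM (log2 difference 1.27 ± 0.18, adjusted p = 3.61e-05), while it averaged 0.0108 CPM in the lung and 0.0810 CPM in the spleen libraries. Serpinc1, the antithrombin gene, stood at 3.12 and 3.07 against 0.629 and 0.653 CPM (log2 difference 2.26 ± 0.40, adjusted p = 0.000287). Both genes were higher in both PSGL1lo libraries than in either PSGL1hi library, beside 56.5% of all genes tested without overlap in either direction. Of 77 hepatocyte genes in the file 41 were tested, and 18 were called higher and 0 lower in PSGL1lo, with a median difference of 1.30, beside 20.8% called and a median of -0.02 over all 13780 genes tested. Besides this list, a gene was set apart as liver-restricted where its mean over the 4 liver libraries was at least 1 CPM and at least 10 times its mean in lung and in spleen, a rule that does not use the fractions. The rule found 20 genes, 14 of them on the hepatocyte list. Of these 14, Apoh, Gc, Plg and Apob averaged under 1 CPM in PSGL1hi and met the limit of 1 CPM only through PSGL1lo. Among the liver-restricted genes not on the list, Sbp and Dmbt1 were read in only 1 liver library each. The 83 genes of either kind held 0.0249% and 0.0193% of the counts in the PSGL1lo libraries and 0.0145% and 0.0115% in the PSGL1hi libraries. The same 83 genes held 0.0161% to 0.0264% in lung and 0.0144% to 0.0257% in cGVHD spleen libraries, so this share is not hepatocyte RNA alone. In a bulk library, fewer cells of a type and less RNA per cell cannot be told apart, which holds for every result below. The count of 18 rests on the replicates. It was 4 without PSGL1lo replicate 1, 17 without PSGL1lo replicate 2, 6 without PSGL1hi replicate 1 and 3 without PSGL1hi replicate 2. DESeq2 gave a value for 25 of the 41 genes and called 7 higher and 0 lower. Cd200r2, a receptor gene of the CD200R family, met the liver-restricted rule and was the only one of the 45 set-apart genes tested that was called lower in PSGL1lo, at 4.18 and 5.22 against 12.7 and 10.3 CPM (log2 difference -1.30 ± 0.27, adjusted p = 0.00126).

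**Figure D1:**
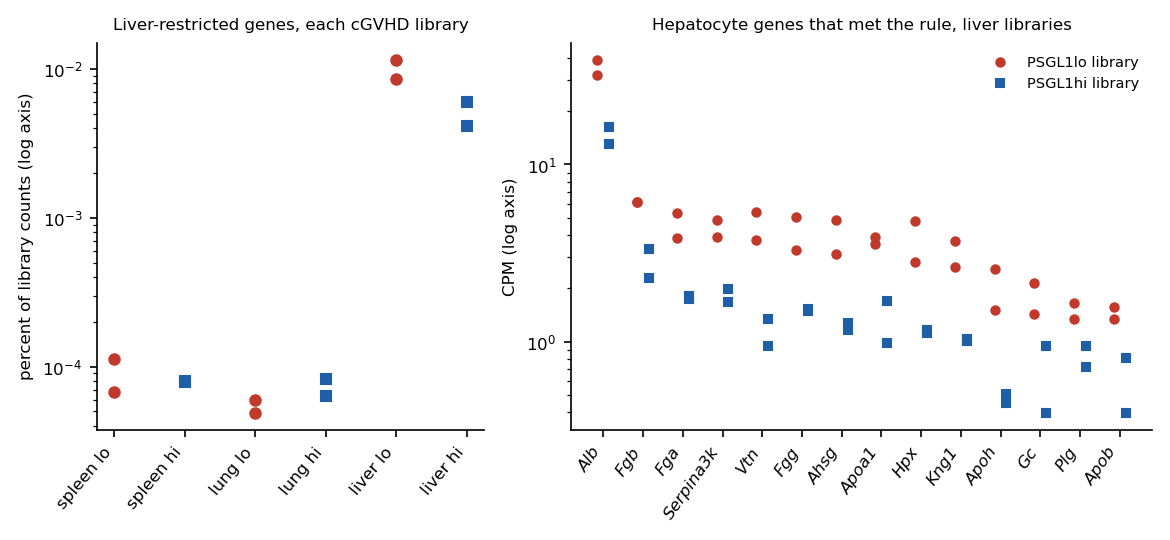
Left, percent of each cGVHD library's counts (log axis) in the 20 liver-restricted genes, 1 point per library, with circles for PSGL1lo and squares for PSGL1hi; the liver PSGL1lo libraries lie at 0.0115% and 0.0085%, above the liver PSGL1hi libraries at 0.0060% and 0.0041%. Right, CPM (log axis) of the 14 liver-restricted genes on the hepatocyte list in the 4 liver libraries. For each gene both circles lie above both squares. Apoh, Gc, Plg and Apob averaged 0.478, 0.671, 0.834 and 0.604 CPM in PSGL1hi and met the limit of 1 CPM only through PSGL1lo.

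PSGL1lo cells of the liver held more transcripts of follicular helper T cells and TNF family members. NF-kappaB regulators and interferon-stimulated genes leaned the same way by small differences. Transcripts of circulation, killer receptors, cytotoxicity, Th17 cells and cell division were fewer. Of 13780 genes tested 2866 (20.8%) were called, 1171 (8.50%) higher and 1695 (12.3%) lower in PSGL1lo. List counts below should be read against these shares. A change beyond 1.5-fold was shown for 472 genes (3.43%), 197 higher and 275 lower. It was shown for 9 of 27 follicular helper and 5 of 24 TNF family genes, but for 0 of 18 NF-kappaB and 0 of 34 interferon-stimulated genes. The libraries of the fractions did not overlap for 7781 genes (56.5%), which is the share against which non-overlap of single genes should be read. With library totals in place of TMM scaling, 1630 were higher and 1287 lower, so that the share of higher calls was 55.9% against 40.9%. Without the 45 set-apart genes 1153 were higher and 1691 lower. The counts depended on the replicates, from 572 higher and 980 lower without PSGL1hi replicate 1 to 1397 higher and 2299 lower without PSGL1lo replicate 2. Without PSGL1hi replicate 2 they were 600 and 1043, and without PSGL1lo replicate 1 they were 901 and 1151.

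**Figure D2:**
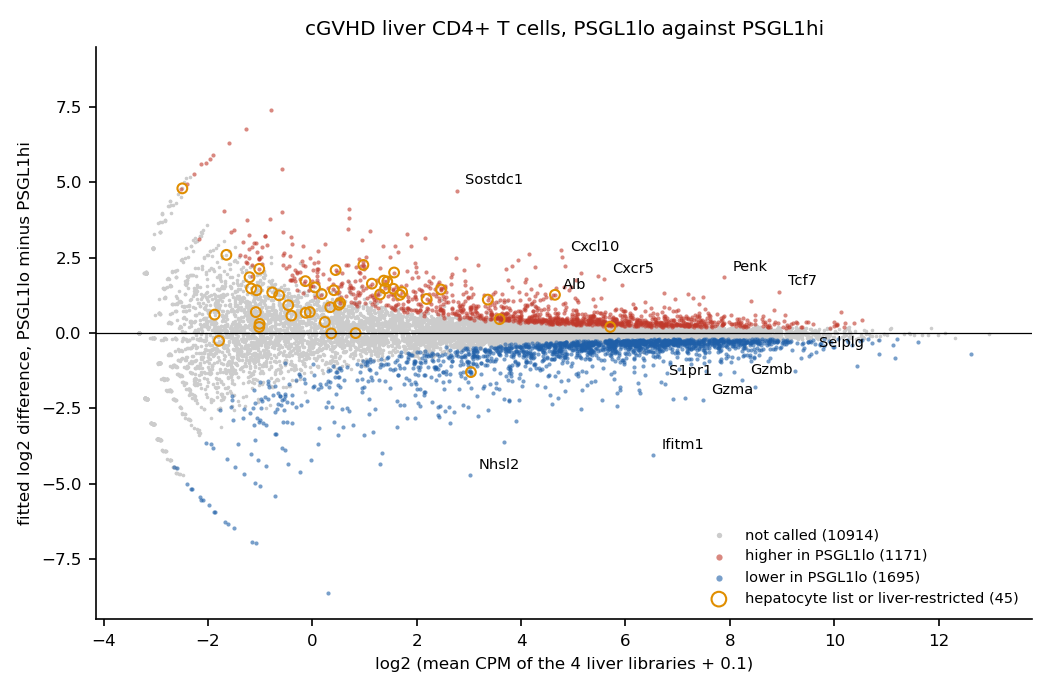
Each point is 1 of the 13780 genes tested, with its mean level over the 4 liver libraries on the x axis (log2 of CPM plus 0.1) and its fitted log2 difference, PSGL1lo minus PSGL1hi, on the y axis. Red points (1171) were called higher and blue points (1695) lower in PSGL1lo, and orange rings mark the 45 tested hepatocyte-list or liver-restricted genes, most of which lie above 0.

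Leading genes were the 15 with the largest difference in each direction among called genes whose libraries did not overlap between the fractions. They were taken from those at 10 CPM or more in one fraction. Hepatocyte and liver-restricted genes, markers on the lists of other cell types and immunoglobulin genes were left out. Towards PSGL1lo, Sostdc1, a secreted antagonist of BMP and Wnt signals, stood at 13.3 and 12.6 against 0.539 and 0.435 CPM (log2 difference 4.73 ± 0.19, adjusted p = 2.33e-13). Lrig1, a membrane protein that restrains growth factor receptors, stood at 43.8 and 50.2 against 7.46 and 6.53 CPM (log2 difference 2.75 ± 0.11, adjusted p = 1.86e-13). A large difference without overlap was a condition of this choice and is no further result. Cd83, a surface protein of activated lymphocytes and dendritic cells, stood at 28.1 and 32.6 against 4.27 and 5.44 CPM (log2 difference 2.63 ± 0.16, adjusted p = 1.37e-10). Il1r2, a decoy receptor that binds interleukin-1 without signalling, was at 75.4 and 64.8 against 19.4 and 18.1 CPM (log2 difference 1.91 ± 0.12, adjusted p = 1.9e-10). Penk, the precursor of enkephalin peptides, which has been described in T cells of repairing tissue, was at 389 and 356 against 100.2 and 105 CPM (log2 difference 1.86 ± 0.13, adjusted p = 7.51e-10). Its difference was just below those of the 15 leading genes, and both PSGL1lo libraries lay above both PSGL1hi libraries. The other leading genes were Csgalnact1 (chondroitin sulfate synthesis, 2.50), Lad1 (2.42), P3h2 (a collagen prolyl hydroxylase, 2.25), Dclk1 (a microtubule-associated kinase, 2.23), Bace2 (an aspartyl protease, 2.21), Scin (an actin-severing protein, 2.19), Serpina9 (a serpin known from germinal centre B cells, 2.13), D430019H16Rik (2.10), Nsg2 (1.99) and Vipr2 (a receptor of vasoactive intestinal peptide, 1.95), with the log2 difference in each bracket. The 15 leading genes of each direction kept their direction under every alternative run. They were chosen for large called differences in these same libraries, so their stability is no independent check.

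Towards PSGL1hi, Nhsl2 and Ifitm1 differed most among the leading genes. Nhsl2 stood at 0.401 and 0.842 against 14.6 and 16.5 CPM (log2 difference -4.71 ± 0.26, adjusted p = 3.19e-11). Ifitm1, which belongs to a family of membrane proteins that block virus entry, stood at 11.9 and 8.72 against 169 and 180.0 CPM (log2 difference -4.06 ± 0.16, adjusted p = 1.86e-13). Ifitm2 and Ifitm3 went the same way, at 46.4 and 40.5 against 196 and 198 CPM (-2.18 ± 0.08) and 27 and 18.8 against 88.8 and 93.5 CPM (-1.98 ± 0.14), so that 3 of the 5 tested family members were lower. Ifitm10 was at 50.7 and 40.7 against 34.6 and 34.6 CPM (0.40 ± 0.13), the only member higher in PSGL1lo, and it lost its call without PSGL1lo replicate 1 (0.23) and without either PSGL1hi replicate (0.40 in each case). Other leading genes were Cntn1 (a neural cell adhesion protein, -3.00), Ggt1 (gamma-glutamyl transferase, -2.92), Ccr1 (an inflammatory chemokine receptor, -2.74), Pde5a (a cyclic GMP phosphodiesterase, -2.62), Rap1gap2 (-2.53), Nav1 (-2.46), Il17re (-2.45), 1500009L16Rik (-2.39), Klrc1 (-2.34), Fam129b (-2.27), Gzma (-2.24) and Emp1 (-2.23).

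Cxcl10, the chemokine that attracts Cxcr3-bearing cells and is induced by interferons and NF-kappaB, was among the 15 leading genes, and its promoter is shown beside those of an interferon-stimulated gene and of an NF-kappaB inhibitor, as examples of the 2 groups described next. The sequences are the 250 bases before the annotated start in RefSeq on GRCm38.p6, read 5′ to 3′ on the gene's strand. Capitals mark matches on either strand to an interferon response element-like word (GAAA, any 2 bases, GAAA) or to an NF-kappaB-like word (GGG, any 3 bases, TTCC); where 2 matches overlap they form 1 run. The counts in this study were made on mm9, so the coordinates describe only the printed sequences.
Cxcl10, chr5:92348890-92349139, minus strand: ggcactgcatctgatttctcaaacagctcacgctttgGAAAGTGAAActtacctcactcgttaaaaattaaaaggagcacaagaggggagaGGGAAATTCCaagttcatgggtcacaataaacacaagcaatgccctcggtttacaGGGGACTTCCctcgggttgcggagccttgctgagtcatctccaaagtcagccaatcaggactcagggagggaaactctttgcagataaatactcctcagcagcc
Ifit3, chr19:34583279-34583528, plus strand: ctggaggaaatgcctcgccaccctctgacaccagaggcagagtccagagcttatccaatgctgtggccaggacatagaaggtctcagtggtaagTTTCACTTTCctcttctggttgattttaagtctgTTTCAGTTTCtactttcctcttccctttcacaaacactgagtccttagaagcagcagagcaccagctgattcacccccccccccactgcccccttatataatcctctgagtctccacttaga
Nfkbia, chr12:55492648-55492897, minus strand: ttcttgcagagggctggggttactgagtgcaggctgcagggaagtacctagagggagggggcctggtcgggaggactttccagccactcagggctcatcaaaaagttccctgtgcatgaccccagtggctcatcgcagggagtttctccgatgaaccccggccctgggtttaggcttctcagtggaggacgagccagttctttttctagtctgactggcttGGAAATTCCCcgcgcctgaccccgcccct
The Cxcl10 window holds 1 interferon response element-like and 2 NF-kappaB-like words, the Ifit3 window 2 of the former and the Nfkbia window 1 of the latter. In all, 936 of 27025 genes with a promoter entry (3.46%) hold the first word, against 14 of the 24 interferon-stimulated genes that have an entry (58.3%). Among these 24 genes, 8 of the 12 called higher (66.7%) and 6 of the 12 not called (50%) hold it. The second word is in 1434 of 27025 (5.31%) and in 7 of 14 NF-kappaB genes with an entry (50%), 4 of 7 called higher and 3 of 7 not called. A match is a run of letters, not a measured binding site.

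Cxcl10 itself stood at 48 and 45.2 against 7.68 and 8.48 CPM (log2 difference 2.52 ± 0.13, adjusted p = 1.07e-11). Its libraries lay close together within each fraction, and non-overlap of the fractions was a condition for leading genes. Its close relative Cxcl11 was low, at 0.716 and 0.884 against 0.0899 and 0.109 CPM. Cxcr3, the receptor of both, was also higher in PSGL1lo, at 599 and 556 against 337 and 346 CPM (log2 difference 0.76 ± 0.07, adjusted p = 1.07e-07). Of 34 interferon-stimulated genes tested 18 were called higher and 0 lower, with a median difference of 0.33. Most of these differences were small. Oasl2 stood at 8.1 and 9.18 against 3.73 and 4.5 CPM (1.06 ± 0.18), and Ifit3, an antiviral RNA-binding protein, at 24 and 24 against 15.7 and 15 CPM (0.65 ± 0.15), a call lost without PSGL1hi replicate 2 (0.61). Ifit1 was at 50.5 and 57.4 against 40.8 and 41.5 CPM (0.39 ± 0.12), and Usp18, a brake on interferon signalling, at 14.7 and 11.5 against 8.49 and 8.63 CPM (0.62 ± 0.17). The calls of Ifit1 and Usp18 were each lost without 3 of the 4 libraries in turn, at 0.29 to 0.40 for Ifit1 and 0.43 to 0.63 for Usp18. The group rests on the replicates, with 8 members called without PSGL1hi replicate 1 and 8 without PSGL1hi replicate 2, 14 without PSGL1lo replicate 1 and 15 without PSGL1lo replicate 2. Ifit3 and Ifit3b are near-identical copies, so their reads may be split. Ifnar2, a chain of the interferon alpha and beta receptor, was at 104 and 123 against 72.5 and 70.6 CPM (0.66 ± 0.08). Ifngr1, a chain of the interferon gamma receptor, went the other way, at 462 and 482 against 840.2 and 841 CPM (-0.83 ± 0.06).

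NF-kappaB regulators and the TNF family also leaned to PSGL1lo. NF-kappaB factors wait in the cytoplasm bound to inhibitors until receptors, many of them of the TNF family, release them. Of 18 NF-kappaB genes tested 9 were called higher and 0 lower (median 0.26). Relb and Nfkb2, the pair of the non-canonical pathway, were at 115 and 92.2 against 63.7 and 62.2 CPM (0.72 ± 0.10) and at 247 and 222 against 139.7 and 157 CPM (0.66 ± 0.08). Tnip1 and Nfkbie, inhibitors in the pathway, were at 210.4 and 192 against 138 and 143 CPM (0.52 ± 0.08) and at 79.5 and 71.9 against 53.6 and 53.5 CPM (0.50 ± 0.08). Nfkbia, whose promoter is printed above, was at 520.0 and 493 against 403 and 426 CPM (0.29 ± 0.07) and lost its call without PSGL1hi replicate 1 (0.25). Of 24 TNF family genes 13 were called higher and 1 lower, with a median of 0.34. Tnfsf11, which encodes RANKL, a ligand that acts on dendritic cells and osteoclasts, stood at 149 and 154 against 62.1 and 59.3 CPM (log2 difference 1.32 ± 0.11, adjusted p = 1.24e-08). Lta, the lymphotoxin alpha gene, was at 33.1 and 32.7 against 13.7 and 15.9 CPM (log2 difference 1.15 ± 0.12, adjusted p = 2.62e-07). For both ligands the PSGL1lo libraries were all above the PSGL1hi libraries. Cd70, the ligand of CD27, was low, at 6.13 and 3.96 against 1.75 and 1.63 CPM (1.59 ± 0.28), and Tnfsf14, the ligand LIGHT, was at 159.7 and 134 against 78.2 and 85.3 CPM (0.84 ± 0.09). Tnfrsf4, the costimulatory receptor OX40, was at 247 and 217 against 128 and 141 CPM (0.79 ± 0.08). The single member lower in PSGL1lo was Fasl, the death ligand, at 64.4 and 65.7 against 95.9 and 87.4 CPM (-0.49 ± 0.08).

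Genes of follicular helper T cells and of B cell help gave the highest share of higher calls among the 34 T cell lists. Of the 27 genes 23 were called higher and 0 lower (median 0.67). As the lists were chosen with earlier results of these data known, this rank is a description and not a test. Follicular helper cells are made by the repressor Bcl6, find follicles through Cxcr5 and help B cells through Il21, Cd40lg and Icos. Cxcr5 stood at 77.4 and 70.6 against 22.2 and 20.9 CPM (log2 difference 1.78 ± 0.09, adjusted p = 1.66e-11). Bcl6 stood at 45.5 and 46.1 against 15.6 and 16.1 CPM (log2 difference 1.53 ± 0.12, adjusted p = 5.06e-09). Both were well above the PSGL1hi level in both PSGL1lo libraries. Pou2af1, a transcriptional coactivator best known in B cells, was low, at 1.37 and 1.85 against 0.270 and 0.435 CPM (2.12 ± 0.36). Slamf6, a receptor of contacts between T and B cells, was at 209 and 210.3 against 86.8 and 82.1 CPM (log2 difference 1.31 ± 0.07, adjusted p = 4.31e-11). The help molecules differed less. Il21 was at 97.8 and 117 against 86.2 and 83.2 CPM (log2 difference 0.34 ± 0.09, adjusted p = 0.00741), and its call was lost without PSGL1lo replicate 2 (0.20) and without PSGL1hi replicate 2 (0.32). Icos, a costimulatory receptor, was at 307 and 364 against 241 and 248 CPM (log2 difference 0.46 ± 0.07, adjusted p = 0.000107). For Cd40lg, which engages CD40 on B cells, levels were 173 and 179 against 146 and 147 CPM (0.27 ± 0.08), and the call was lost without PSGL1lo replicate 2 (0.24) and without either PSGL1hi replicate (0.26 and 0.27). Pdcd1, which encodes PD-1, was at 478 and 429.6 against 381 and 401 CPM (0.21 ± 0.07), called in the fit of all libraries but not without PSGL1lo replicate 1 (0.14), without PSGL1hi replicate 1 (0.18), without PSGL1hi replicate 2 (0.25) or in the 4 liver libraries alone (0.24). Without 1 library at a time 16 to 20 of the 27 genes were called higher.

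**Figure D3:**
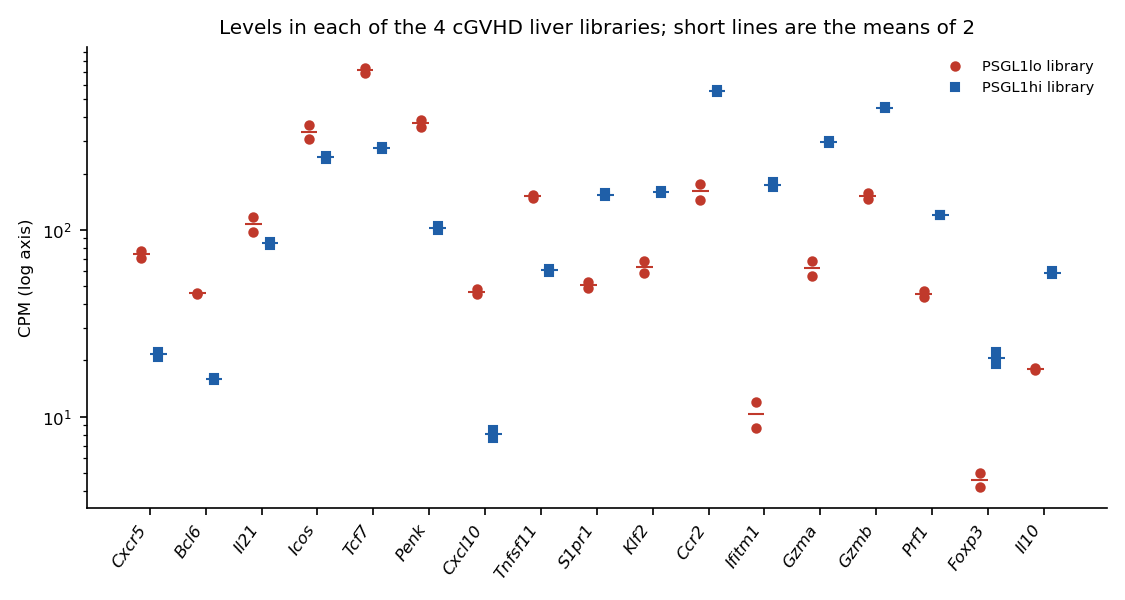
CPM (log axis) of 17 named genes in each liver library, with circles for the 2 PSGL1lo libraries, squares for the 2 PSGL1hi libraries and short lines for the mean of 2. From Cxcr5 to Tnfsf11 the circles lie above the squares, and from S1pr1 to Il10 below them; the gap is widest for Ifitm1 and narrow for Il21 and Icos.

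Factors that oppose the follicular programme mostly went the other way, with 6 of 9 lower and 2 higher (median -0.41). Prdm1 encodes Blimp-1, the repressor that antagonises Bcl6, and it was at 136 and 143 against 186 and 182 CPM (log2 difference -0.40 ± 0.09, adjusted p = 0.00392). Il2ra, a chain of the interleukin-2 receptor whose signal restrains follicular differentiation, was at 74.9 and 81.8 against 179.8 and 181 CPM (log2 difference -1.21 ± 0.10, adjusted p = 1.1e-08). Both PSGL1lo libraries were lower for each gene. The exceptions were Stat5a at 163 and 149 against 93.6 and 92 CPM (0.75 ± 0.09) and Stat5b at 291 and 287 against 229 and 245 CPM (0.29 ± 0.07), which carry the interleukin-2 signal; the call of Stat5b was lost without PSGL1hi replicate 1 (0.24). Among genes of naive, stem-like and memory T cells 5 of 18 were higher and 4 lower (median -0.01), so the list had no common direction. Tcf7, which encodes TCF-1, a factor of stem-like and follicular T cells, stood at 736 and 691 against 276 and 273 CPM (log2 difference 1.38 ± 0.08, adjusted p = 2.66e-11), with both PSGL1lo libraries well above both PSGL1hi libraries. Satb1, a chromatin organiser of T cells, was at 110.1 and 126 against 209 and 219 CPM (-0.86 ± 0.08), and Il7r, the interleukin-7 receptor of long-lived cells, at 254 and 307 against 443 and 426 CPM (-0.63 ± 0.08), both lower. Id3 was at 8.73 and 8.93 against 5.75 and 4.89 CPM (0.74 ± 0.14). Il6ra, the interleukin-6 receptor, was at 6.27 and 6.91 against 2.79 and 2.54 CPM (1.30 ± 0.21). P2rx7, an ATP-gated channel of tissue T cells, was at 448 and 474 against 216 and 221 CPM (log2 difference 1.08 ± 0.07, adjusted p = 1.37e-10), higher in both PSGL1lo libraries.

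Genes of circulation and tissue egress were lower in PSGL1lo, 12 of 17, with 1 higher (median -0.72). Cells leave tissues for lymph and blood along sphingosine-1-phosphate, which they sense through S1pr1, a target of the factor Klf2. S1pr1 stood at 48.7 and 52.3 against 152 and 157 CPM (log2 difference -1.62 ± 0.09, adjusted p = 6.02e-11). Klf2 stood at 68.2 and 59.1 against 158 and 162 CPM (log2 difference -1.32 ± 0.13, adjusted p = 2.21e-07). In each case both PSGL1lo libraries were well below the PSGL1hi libraries. S1pr5, a relative of S1pr1, was close to the floor in PSGL1lo, at 0.200 and 0.253 against 2.38 and 2.39 CPM. Cx3cr1, a receptor of effector cells in blood, was at 21.6 and 22.4 against 52.7 and 55.4 CPM (log2 difference -1.30 ± 0.14, adjusted p = 9.21e-07), and Ly6c2 was at 23.9 and 17.9 against 65.5 and 62.9 CPM (-1.61 ± 0.12). Ccr7, the receptor for the chemokines of lymph node T cell zones, was the one gene of the list higher in PSGL1lo, at 8.33 and 7.83 against 2.74 and 4.28 CPM (log2 difference 1.18 ± 0.16, adjusted p = 1.02e-05).

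Genes linked with tissue residency were lower in PSGL1lo in 10 of 22 cases and higher in 2 (median -0.31). Residency is commonly read from Cd69, which retains cells by binding S1PR1, and from the integrins of epithelial and matrix contact. Cd69 was at 146 and 181 against 178 and 178 CPM, overlapping between the fractions and not called. Without PSGL1lo replicate 2 it was called lower (-0.29). Itgae, the CD103 integrin chain, was at 30.6 and 30.4 against 49 and 50.4 CPM (log2 difference -0.70 ± 0.09, adjusted p = 5.41e-06). Its partner on epithelial cells, Cdh1 (E-cadherin), was at 14.7 and 15.6 against 54.5 and 58.7 CPM (log2 difference -1.90 ± 0.11, adjusted p = 3.02e-11). Both were lower in both PSGL1lo libraries. Itga1, a collagen-binding integrin chain, was at 59.4 and 80.2 against 118 and 123 CPM (-0.79 ± 0.11), and Cxcr6, the chemokine receptor that keeps T cells in liver sinusoids, was at 719 and 759.5 against 996 and 931 CPM (-0.38 ± 0.08). Xcl1, a chemokine for cross-presenting dendritic cells, was higher, at 94.5 and 92.3 against 49.1 and 45.6 CPM (0.98 ± 0.13). Over the integrin and adhesion list 10 of 23 were lower and 1 higher. That one was Vcam1, an adhesion ligand of integrin alpha 4, at 8.82 and 5.73 against 3.55 and 2.39 CPM (1.34 ± 0.20). Itgax, the CD11c integrin chain of dendritic cells and activated lymphocytes, stood at 1.6 and 2.27 against 22.3 and 24.5 CPM (log2 difference -3.63 ± 0.26, adjusted p = 1.1e-09). The dendritic cell list, with a summed level of 206 to 252 CPM in PSGL1lo and 227 to 239.6 CPM in PSGL1hi libraries, also holds Itgax. On it 3 of 13 genes were higher and 2 lower, beside 8.50% and 12.3% over all genes tested. Those higher were Zbtb46, a factor of classical dendritic cells, at 8.1 and 6.06 against 2.07 and 2.25 CPM (1.72 ± 0.23), Cd74, the invariant chain of antigen presentation, at 117 and 103 against 86.5 and 82.4 CPM (0.38 ± 0.12), and the chemokine receptor gene Xcr1. The other one lower was H2-Aa, a class II histocompatibility gene, at 10.5 and 7.79 against 15.8 and 12.9 CPM (-0.62 ± 0.19). The call of Cd74 was lost with DESeq2 (0.40), with voom under group quality weights (0.38) and without PSGL1lo replicate 1 (0.29), PSGL1hi replicate 1 (0.42) or PSGL1hi replicate 2 (0.34). That of H2-Aa was lost with limma voom (-0.60, also with group quality weights), in the liver libraries alone (-0.61) and without PSGL1lo replicate 2 (-0.44) or PSGL1hi replicate 1 (-0.47). Flt3, Clec9a and Cd209a, named after their values were seen, were at or near the floor, at 0.372 and 0.126 against 0.0899 and 0.218 CPM, 0.115 and 0.168 against 0.180 and 0.109 CPM and 0 and 0 against 0.0449 and 0 CPM. The part of dendritic cells in the Itgax difference was not tested.

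Chemokine receptors split evenly, 7 of 20 higher and 7 lower. Those higher included Cxcr5, Cxcr3 and Ccr7, given above, together with Ccr8 at 64.6 and 54.6 against 35.8 and 38.6 CPM (0.68 ± 0.10) and Ccr4 at 50.2 and 40.6 against 29.1 and 29.9 CPM (0.63 ± 0.10), receptors of skin-homing and Th2 cells. On the other side, Ccr2, the receptor of inflammatory monocytes and effector T cells, stood at 145 and 177 against 563 and 547 CPM (log2 difference -1.79 ± 0.09, adjusted p = 1.51e-11). Ccr1 was at 1.98 and 2.74 against 15.5 and 15.5 CPM (log2 difference -2.74 ± 0.19, adjusted p = 9.06e-10). Gpr15, a gut-homing receptor, was at 1.06 and 1.64 against 6.78 and 6.42 CPM (-2.32 ± 0.36). Xcr1, the receptor of Xcl1, was low, at 2.41 and 2.32 against 0.539 and 1.05 CPM (1.54 ± 0.43), a call lost without PSGL1hi replicate 1 (1.16). The sugar transfer genes that make selectin ligands also differed, with 7 of 16 lower, Selplg included, and 4 higher (median -0.24). Fut7, the fucosyltransferase of selectin ligands, was at 2.12 and 3.12 against 5.62 and 5.55 CPM (-1.11 ± 0.22). Gcnt1, which builds the branched core of these sugars, was at 10.6 and 9.52 against 21.6 and 19.1 CPM (log2 difference -1.01 ± 0.13, adjusted p = 6.37e-06). St6gal1, a sialyltransferase of another linkage, was higher, at 204 and 189.7 against 143 and 149 CPM (0.43 ± 0.07).

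Cytotoxic and Th1 genes were lower in PSGL1lo, 13 of 23, with 1 higher (median -0.49). Killer cells store granzymes and perforin in granules and release them onto targets, and Th1 cells make interferon gamma under the factor T-bet. Gzma stood at 68.1 and 56.5 against 298 and 292 CPM (log2 difference -2.24 ± 0.21, adjusted p = 5.73e-08). Gzmb stood at 157 and 146 against 452 and 448 CPM (log2 difference -1.57 ± 0.14, adjusted p = 2.95e-08). Prf1, the perforin gene, was at 47 and 43.9 against 119.5 and 119.6 CPM (log2 difference -1.39 ± 0.08, adjusted p = 5.53e-11). Each of the 3 granule genes was well below the PSGL1hi level in both PSGL1lo libraries. Ifng was at 246 and 259 against 360.5 and 359 CPM (log2 difference -0.51 ± 0.07, adjusted p = 2.54e-05), a smaller difference, and Tbx21, which encodes T-bet, was at 186 and 170.3 against 168 and 176 CPM and was not called. Of the chemokines of effector cells, Ccl3 was at 157 and 157 against 384 and 385 CPM (-1.29 ± 0.08), Ccl4 at 117 and 102 against 256 and 270.4 CPM (-1.27 ± 0.10) and Ccl5 at 1843 and 1479 against 2907 and 2978 CPM (-0.83 ± 0.12). The killer lectin-like receptors, which natural killer and cytotoxic T cells use to sense class I molecules, were lower as a family, 10 of 14 with 0 higher (median -1.77). Klrk1, which encodes NKG2D, was at 31.6 and 30.5 against 124 and 125 CPM (log2 difference -2.0 ± 0.10, adjusted p = 1.3e-11), and Klrc1, which encodes NKG2A, at 6.61 and 9.35 against 41.6 and 38.2 CPM (log2 difference -2.34 ± 0.17, adjusted p = 1.12e-09). Several members of this family are near-identical copies, so reads may be split between them.

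Markers of CD8 T cells moved with these genes. Cd8a was at 18.6 and 16.8 against 94.9 and 96.8 CPM (log2 difference -2.43 ± 0.10, adjusted p = 6.39e-13) and Cd8b1 at 12.9 and 11.2 against 46.1 and 44.8 CPM (log2 difference -1.91 ± 0.12, adjusted p = 1.37e-10). Both members of the list were lower in PSGL1lo, and their summed level was 28.0 to 31.5 CPM in PSGL1lo and 141 to 142 CPM in PSGL1hi libraries. On the list of natural killer and innate lymphoid cells 4 of 8 tested genes were lower and 1 higher, with a summed level of 442 to 457 CPM against 570.2 to 589 CPM. Most of that sum was Gata3 and Eomes, also on the Th2 and Th1 lists. Gata3 was at 249 and 235 against 220 and 246 CPM, and Eomes at 156 and 146 against 215 and 210 CPM. The member called higher was Arg1, also on the hepatocyte list, and its call was lost in several settings, for example limma voom (0.99). Ncr1, a receptor of natural killer cells named after its values were seen, was at or near 0, at 0 and 0.0421 against 0.0449 and 0.145 CPM. It does not stand for the whole list, on which 3 of the 8 tested genes passed the 1.5-fold test. Among these was Il1rl1, lower in PSGL1lo (-1.30 ± 0.11). The part of CD8 T cells in the lower level of cytotoxic and killer receptor genes was not tested.

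Th17 genes were lower in PSGL1lo in 9 of 11 cases, with 0 higher (median -1.37). Il1r1, the signalling receptor of interleukin-1, was at 6.33 and 8.63 against 25.1 and 24.5 CPM (log2 difference -1.74 ± 0.14, adjusted p = 9.68e-09). Opposite to it, the decoy Il1r2 was higher in PSGL1lo, as given above. Il23r, which sustains Th17 cells, was at 1.12 and 1.31 against 3.91 and 4.53 CPM (-1.81 ± 0.27). The cytokines themselves were scarce, with Il17a at 0.0573 and 0.126 against 1.57 and 1.78 CPM and Il22 at 0 and 0.126 against 0.629 and 0.725 CPM, close to the floor in PSGL1lo. Among regulatory T cell genes 5 of 16 were higher and 5 lower. Foxp3, the lineage factor, stood at 4.21 and 4.97 against 19.2 and 22.3 CPM (log2 difference -2.19 ± 0.14, adjusted p = 1.76e-10). Il10, a cytokine that restrains inflammation, was at 17.7 and 18.1 against 59.9 and 58 CPM (log2 difference -1.72 ± 0.10, adjusted p = 5.27e-11). The PSGL1lo libraries were below the PSGL1hi libraries for both. Ebi3, a subunit shared by interleukin-27 and interleukin-35, was higher, at 30.5 and 30.7 against 9.97 and 10.3 CPM (log2 difference 1.6 ± 0.14, adjusted p = 3.01e-08), and so was Izumo1r, the folate receptor 4 of regulatory and helper cells, at 185 and 156 against 80.8 and 74.6 CPM (log2 difference 1.13 ± 0.08, adjusted p = 1.83e-09). Of the 11 Th2 genes tested, 3 were higher and 4 lower. Gata3, the Th2 factor, was at 249 and 235 against 220.2 and 246 CPM and was not called. Il1rl1, the receptor of interleukin-33, was at 27.6 and 36 against 77.2 and 78.5 CPM (log2 difference -1.30 ± 0.11, adjusted p = 1.11e-08), lower in PSGL1lo, and Il4 was low in both fractions, at 4.21 and 3.03 against 1.84 and 2.32 CPM (0.81 ± 0.28), with a call lost under limma voom (0.81, also with group quality weights), in the liver libraries alone (0.83) and without PSGL1lo replicate 1 (0.53), PSGL1hi replicate 1 (0.66) or PSGL1hi replicate 2 (0.99).

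Inhibitory receptors and exhaustion genes were mixed, 6 of 18 higher and 5 lower (median 0.01). Cd200, a ligand, and Btla, a receptor, of inhibitory signals, both found on follicular helper cells, were higher, at 45.1 and 46.5 against 21.8 and 22.5 CPM (1.04 ± 0.10) and 70.3 and 83.1 against 44.3 and 43.5 CPM (0.80 ± 0.09). Those lower are known from effector and exhausted cells. Havcr2, which encodes TIM-3, was at 47.2 and 54.6 against 157 and 173 CPM (log2 difference -1.70 ± 0.10, adjusted p = 6.88e-11). Lag3 was at 244 and 235 against 347 and 370.3 CPM (log2 difference -0.58 ± 0.07, adjusted p = 5.96e-06), and Entpd1, the ectoenzyme CD39, was at 107 and 104 against 195 and 184 CPM (-0.85 ± 0.07). Nt5e, which encodes CD73, the enzyme that acts after CD39 to make adenosine, went the other way, at 46.5 and 54.8 against 38.1 and 34.4 CPM (0.48 ± 0.10), a call lost without PSGL1hi replicate 2 (0.40).

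Genes of cell division were lower almost throughout, 33 of 36 with 0 higher (median -0.53). Mki67, a marker of dividing cells, stood at 369.9 and 397 against 535 and 568 CPM (log2 difference -0.52 ± 0.07, adjusted p = 1.71e-05). Ccna2, a cyclin of DNA synthesis and mitosis, was at 40.5 and 39.9 against 81.3 and 76.9 CPM (log2 difference -0.98 ± 0.12, adjusted p = 4.69e-06). Rrm2, which makes the building blocks of DNA, was at 54.1 and 46.5 against 92 and 93.2 CPM (-0.88 ± 0.10), and Myc, a driver of growth, was at 59.1 and 54.8 against 96.6 and 94 CPM (-0.74 ± 0.10). The PSGL1lo libraries were lower for all 4 genes. Leaving out 1 library at a time left 27 to 35 members called lower. Cholesterol and fatty acid synthesis genes were lower in 11 of 23 cases and higher in 1 (median -0.29), for example Sqle, an enzyme of cholesterol synthesis, at 32.2 and 31.1 against 49.6 and 47.8 CPM (-0.62 ± 0.10). Without PSGL1hi replicate 1 and without PSGL1hi replicate 2 the count was 7. Glycolysis and hypoxia genes were called in 8 of 24 cases, 3 higher and 5 lower, beside 20.8% called over all genes tested. The glucose transporter Slc2a3 was at 127 and 129 against 208 and 217 CPM (-0.73 ± 0.07). Of 30 nuclear-encoded genes of oxidative phosphorylation 0 were higher and 1 lower by edgeR's test, with 0 and 4 at an unadjusted p under 0.05. Of 42 ribosomal protein genes 1 was higher and 1 lower. AP-1 and other immediate early genes, which respond to receptor signals and also to handling of cells, were higher in 12 of 28 and lower in 7 (median 0.13). Egr2, induced by T cell receptor signals, was at 109 and 120.2 against 66.2 and 63.1 CPM (log2 difference 0.82 ± 0.09, adjusted p = 6.28e-07), Jun was at 605 and 679.7 against 419 and 425 CPM (0.61 ± 0.10), and Atf3 was at 1.17 and 2.32 against 8.27 and 9.61 CPM (log2 difference -2.44 ± 0.20, adjusted p = 1.23e-08). The 12 higher calls became 6 without PSGL1hi replicate 1, 8 without PSGL1hi replicate 2 and 8 without PSGL1lo replicate 2.

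**Figure D4:**
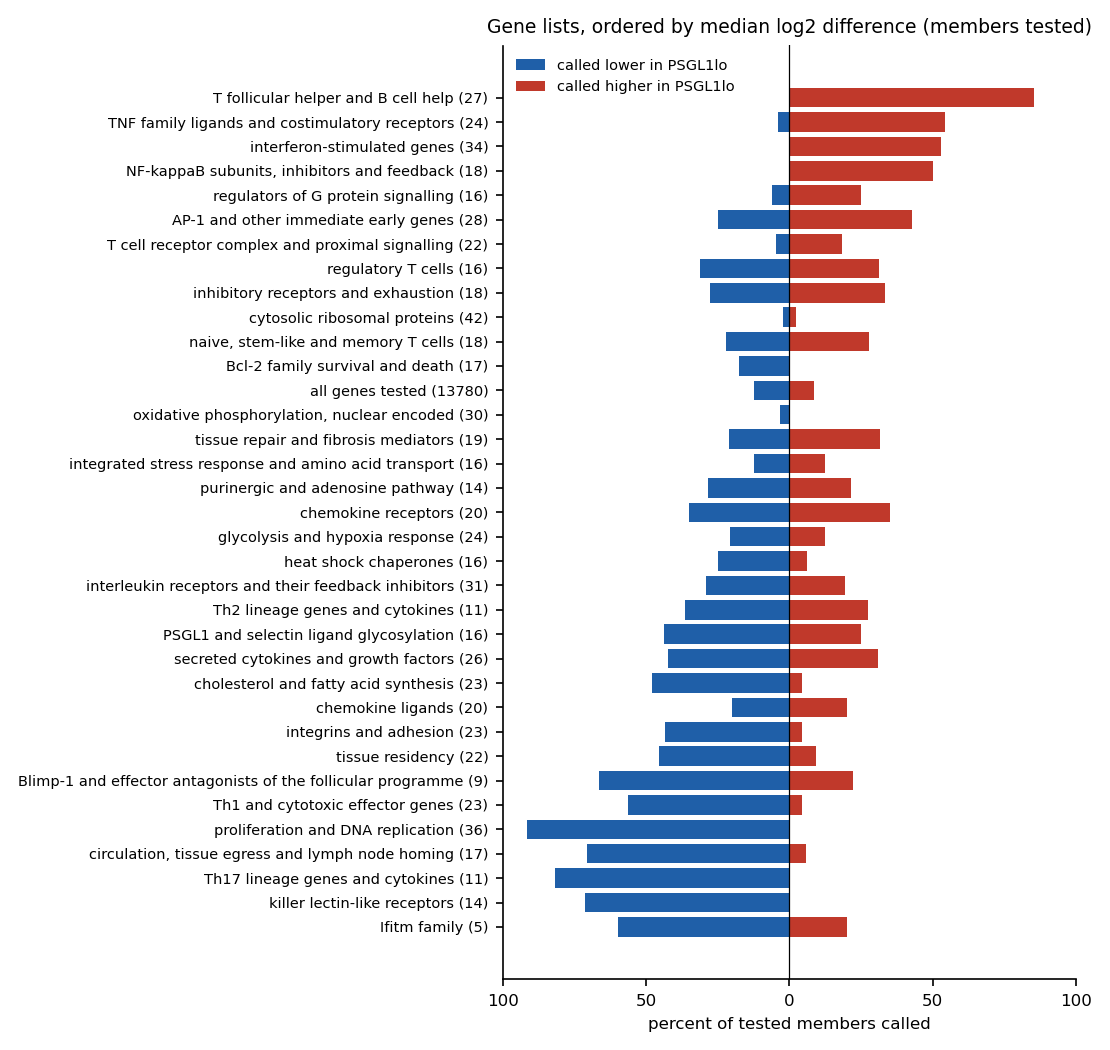
Percent of tested members of each T cell list, and of all 13780 genes tested, that were called higher (red, to the right of 0) or lower (blue, to the left) in PSGL1lo; lists are ordered by median log2 difference and the number tested is in brackets. The follicular helper list is at the top with 23 of 27 higher, and the lists at the bottom hold the Ifitm, killer lectin-like, Th17 and egress genes.

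On 7 T cell and hepatocyte lists described above that had 0 calls in one direction by edgeR's quasi-likelihood test, an unadjusted p under 0.05 marked 1 follicular helper gene as lower and 1 killer receptor gene as higher, and 0 on the hepatocyte, Th17, NF-kappaB, cell division and interferon lists. DESeq2 and limma voom called 0 on these lists in those directions too. Without PSGL1lo replicate 2, 1 gene was called lower on each of the follicular helper, NF-kappaB and interferon lists.

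Markers of other cells of the liver were summed over each list. Their calls stand beside 8.50% higher and 12.3% lower over all genes tested. Macrophage and Kupffer cell markers had 0 of 18 higher and 2 lower by edgeR's test (0 and 4 at an unadjusted p under 0.05, 0 and 2 of the 16 with an adjusted p by DESeq2, 0 and 0 by limma voom), with a summed level of 28.9 to 55.7 CPM in PSGL1lo and 41.1 to 56.1 CPM in PSGL1hi libraries. C1qa, a complement gene of tissue macrophages, was at 3.52 and 1.22 against 2.61 and 1.6 CPM. It was not called, except without PSGL1lo replicate 2, where it was higher (0.77). B and plasma cell markers summed to 8.76 to 9.10 CPM in PSGL1lo and 4.53 to 4.63 CPM in PSGL1hi libraries, with Ms4a1 at 0 and 0 against 0.0449 and 0.0725 CPM. Of the 11 tested 1 was called, Cd22 at 6.41 and 7.2 against 2.2 and 2.39 CPM (1.55 ± 0.22). Endothelial markers had 2 of 13 higher and 2 lower, and summed to 149 to 162 CPM in PSGL1lo and 110.1 to 119 CPM in PSGL1hi libraries. Most of that sum was Pecam1, an adhesion molecule of endothelium and also of leukocytes, at 131 and 144 against 96.9 and 105 CPM (0.45 ± 0.07), while Cdh5, the cadherin of endothelial junctions, was at 0.0859 and 0.0842 against 0.719 and 0.689 CPM, at the floor in PSGL1lo, with a call lost under voom with group quality weights and without PSGL1lo replicate 1. Stellate cell and stroma markers had 1 of 12 higher and 1 lower, and summed to 10.7 to 13.2 CPM in PSGL1lo and 15.7 to 18.1 CPM in PSGL1hi libraries. Cholangiocyte markers had 0 of 5 called in either direction by edgeR's test, DESeq2 or limma voom, with 0 at an unadjusted p under 0.05, and summed to 62.9 to 68.1 CPM against 64.9 to 69.8 CPM. Neutrophil markers, 0 of 11 called by edgeR, DESeq2 or limma voom and 1 at an unadjusted p under 0.05, summed to 27.1 to 140 CPM in PSGL1lo and 18.1 to 73.0 CPM in PSGL1hi libraries. Of these markers 4 were called higher by edgeR with a replicate block and 4 with no filter on low counts, and 1 by voom with group quality weights. A further change came with single libraries, as 6 were called higher without PSGL1lo replicate 2, 5 were called higher without PSGL1hi replicate 1, and 1 was called lower without PSGL1lo replicate 1. Their part in the results was not tested.

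The liver difference was compared with the same difference in the spleen and lung of cGVHD mice by testing the difference of differences. It differed from spleen for 943 genes (6.84%) and from lung for 823 (5.97%). These counts were 331 and 475 without PSGL1hi replicate 2, 438 and 487 without PSGL1hi replicate 1, 423 and 885 without PSGL1lo replicate 1, and 2497 and 1320 without PSGL1lo replicate 2. Spleen library names differ in form and number range from those of liver and lung, which share theirs. This was read as another library series for spleen, though no label says so. Tissue and series therefore cannot be told apart against spleen. Several list patterns of liver were also seen in the other tissues. Follicular helper genes numbered 23 higher and 0 lower of 27 in liver, 21 and 1 in spleen and 20 and 5 in lung. Their median differences were 0.67, 0.92 and 0.93. Cytotoxic and Th1 genes numbered 13 lower and 1 higher of 23 in liver, 16 and 4 in spleen and 19 and 3 in lung. NF-kappaB genes leaned to PSGL1lo in spleen (8 higher, 0 lower of 18) but not in lung (1 and 6). Of 36 cell division genes 33 were lower in PSGL1lo in liver, 35 in spleen and 35 in lung, and the liver difference was above that of spleen for 17 and above that of lung for 19, with 0 below. For Mki67 the differences were -0.52 ± 0.07 in liver, -1.02 ± 0.07 in spleen and -1.24 ± 0.07 in lung. Residency genes differed from lung in 12 of 22 cases and NF-kappaB genes in 9 of 18, all with the liver difference above that of lung. For example, Itgae was at -1.56 ± 0.09 in lung against -0.70 ± 0.09 in liver. Icos and Cd40lg were higher in liver PSGL1lo and lower in lung PSGL1lo cells (-0.60 ± 0.07 and -0.47 ± 0.08 in lung). Il21 was 0.92 ± 0.09 in spleen and 1.83 ± 0.10 in lung, both above its liver difference of 0.34. Of 34 interferon-stimulated genes 0 differed from spleen and 4 from lung. Cxcl10 was nevertheless 1.66 ± 0.14 in spleen and 0.79 ± 0.12 in lung against 2.52 in liver. Itgax, at -3.63 in liver, was -0.84 ± 0.19 in spleen and -0.40 ± 0.17 in lung. Penk, at 1.86 in liver, was -0.17 ± 0.13 in spleen and 2.51 ± 0.13 in lung. Cxcr5 did not pass the test against either tissue, at 1.90 ± 0.10 in spleen and 2.21 ± 0.10 in lung.

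**Figure D5:**
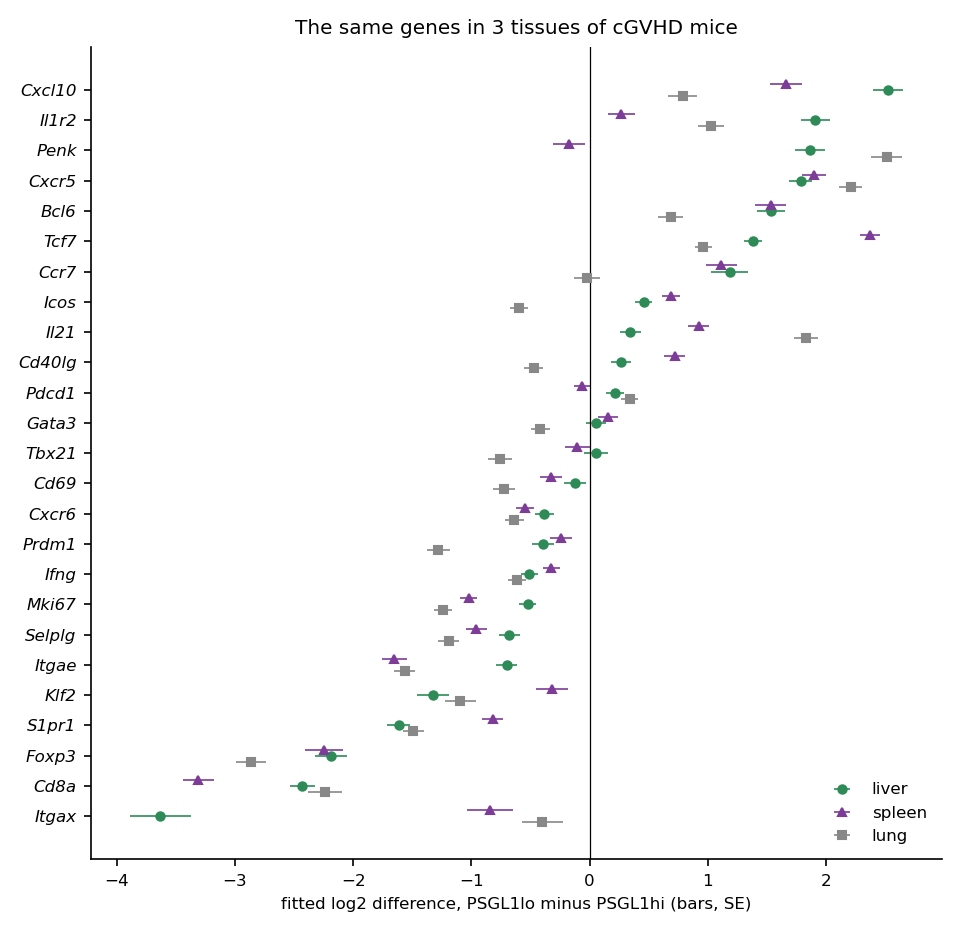
Fitted log2 difference, PSGL1lo minus PSGL1hi, with its SE, in liver (circles), spleen (triangles) and lung (squares) of cGVHD mice for named genes, ordered by the liver value. Itgax and Penk are far apart between tissues, while the 3 values of Cxcr5 lie close together.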

How the data were processed

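RNA was measured by bulk sequencing in 14 libraries of sorted mouse CD4+ T cells, 2 per group. The deposited values are raw read counts per gene. The submitters' processing notes name TopHat2 2.0.8, HTSeq and mm9. The sources used here do not state annotation, strand setting or read filters, so counts of overlapping, antisense and near-identical genes are uncertain. The counts were fitted in R 4.3.3 with edgeR 4.0.16, which left 13780 of 25017 entries after filterByExpr, with TMM scaling, one mean per group over all 14 libraries (7 residual degrees of freedom) and a 2-sided quasi-likelihood F test. Adjusted p-values are Benjamini-Hochberg over all genes tested, and the 1.5-fold test is glmTreat. The fit was also run on counts simulated with the same spread in every group. That run does not cover the unequal spread of the liver pairs. No sample was dropped or imputed, and totals of the liver libraries limit the precision as stated. Named genes were Selplg, the 15 called genes with the largest difference in each direction (no overlap, 10 CPM in the higher fraction; hepatocyte, liver-restricted, other cell type marker and immunoglobulin genes left out), up to 4 called members per list and direction, and defining members; results of some of these genes are not reported here. Itgax, Cxcl10, Penk and Il1r2 in the tissue comparison, and Cd3e, Nfkbia, Ifit1, Cd200r2 and the markers near 0, were chosen after their values were seen. The members and the 34 T cell and 15 marker lists were chosen with earlier results of these data known. Of 955 list entries 949 matched the file and 861 were tested. Alternatives were DESeq2 1.42.0, limma voom, other scalings and filters, the liver libraries alone, a replicate block and each liver library left out; voom with group quality weights was added after seeing the data. Promoters are RefSeq entries on GRCm38.p6.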

Additional observations from a re-analysis of the deposited data

Results flagged for a closer look

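The liver difference between fractions was set against that of another tissue, by a test of the difference of differences in edgeR's quasi-likelihood fit, for defining genes and for Itgax, Cxcl10, Penk and Il1r2. Genes with an adjusted p under 0.05 are given here with the log2 value of liver minus the other tissue. Against spleen, the liver difference was higher for Penk (2.04), Il1r2 (1.64), C1qa (1.52), Itgae (0.95), Cd8a (0.88), Cxcl10 (0.86) and Mki67 (0.50). It was lower for Itgax (-2.79), Klf2 (-1.01), Tcf7 (-0.99), S1pr1 (-0.79), Il21 (-0.58) and Cd40lg (-0.46). C1qa in the liver was itself not called. By their names, spleen libraries appear to be of another series, so tissue and series cannot be told apart.

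Against lung, the liver difference was higher for Cxcl10 (1.74), Ccr7 (1.21), Icos (1.05), Prdm1 (0.88), Il1r2 (0.88), Itgae (0.86), Bcl6 (0.85), Tbx21 (0.81), Cd40lg (0.74), Mki67 (0.72), Foxp3 (0.68), Cd69 (0.60), Selplg (0.51), Gata3 (0.47) and Tcf7 (0.42). It was lower for Itgax (-3.23), Il21 (-1.49) and Penk (-0.65). Groups of 2 libraries allow no search for a single outlying library.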

How the results depend on the processing

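No named gene changed direction among those called. Leading genes were chosen for large called differences in these same libraries, so their stability below is no independent check. Of 221 named genes called, 166 were called under every alternative, and 30 of the 30 leading genes were. The count past 1.5-fold was 472, against 307 with DESeq2 and 270 with voom under group quality weights, and genes called lower were 1080 in the 4 liver libraries alone, where fewer samples were fitted, against 1695. Leaving out 1 library at a time gave 572 to 1397 genes higher, 980 to 2299 lower, 324 to 585 past 1.5-fold, 331 to 2497 that differed from spleen and 475 to 1320 from lung. The highest counts of these came without PSGL1lo replicate 2 and the cause was not tested; the arm left with 1 library is assumed to vary like the other groups. The set-apart share was 0.0221% in PSGL1lo and 0.0130% in PSGL1hi, and 0.0399% and 0.0274% at 5 times the mean elsewhere, where 90 genes in place of 83 were set apart, neutrophil genes among them. The replicate block gave 1197 higher, 1813 lower and 480 past 1.5-fold, and 1143 and 905 genes differed from spleen and lung. Replicate differences of the fractions correlated at 0.114 over 11190 genes, and with 1 pair per number and shared letters (LA, LB) of unstated meaning the numbers are not shown to pair samples. The block also raised the neutrophil markers called higher from 0 to 4. The liver libraries alone give no tissue comparison. A floor of 3 counts limits genes under 0.135 CPM.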

Other observations

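Genes of tissue repair and fibrosis were called in 10 of 19 cases, 6 higher and 4 lower in PSGL1lo. Over all genes tested 8.50% were called higher and 12.3% lower. Besides Penk, the growth factor gene Fgf2 was at 1.57 and 2.27 against 0.270 and 0.218 CPM (2.95 ± 0.52) and Lif, a cytokine of the interleukin-6 family, at 15.7 and 13 against 6.69 and 9.32 CPM (0.84 ± 0.15). Both were higher in both PSGL1lo libraries, beside 56.5% of all genes tested without overlap in either direction. Tgfb3, a member of the transforming growth factor beta family, was lower at 1.69 and 1.73 against 5.53 and 5.47 CPM (-1.69 ± 0.25), and so was the EGF receptor ligand Hbegf at 3.18 and 2.32 against 5.44 and 5.58 CPM (-0.99 ± 0.25), a call lost without PSGL1hi replicate 2 (-0.97). Among receptors coupled to G proteins and their partners, Ramp3 and Ramp1, which set the ligand of calcitonin-type receptors, were at 11.4 and 10.4 against 5.44 and 4.1 CPM (1.20 ± 0.17) and 21.9 and 20.9 against 11.6 and 12.3 CPM (0.84 ± 0.13), higher in both PSGL1lo libraries.

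Neutrophil markers separated by replicate number. For 12 of 12 in the file both replicate 1 libraries lay above both replicate 2 libraries. Within replicate 1, which shares the letter A in its library names, PSGL1lo was above PSGL1hi for 12 of 12, and within replicate 2, with the letter B, for 7 of 12. With the replicate number as a block, edgeR called 4 of the 11 tested higher in PSGL1lo, against 0 without it. Ngp, a granule protein gene, was at 30.4 CPM in PSGL1lo replicate 1 and 14.2 CPM in PSGL1hi replicate 1, and at 5.01 and 3.37 CPM in the replicate 2 libraries. S100a9 was at 40.7 and 20.6 CPM in the replicate 1 libraries and at 7.71 and 5.0 CPM in the others.

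A search for genes with at least 100 counts in 1 liver library and at most 2 in the other 3 found 4. Sbp had 332 counts, Cdcp3 117 and Spink1 102 in PSGL1lo replicate 1, with 0 in the 13 other libraries. Dmbt1 had 197 counts in PSGL1hi replicate 1, with 0 in the other liver libraries and at most 2 in the rest. Sbp and Dmbt1 are among the 20 liver-restricted genes.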
